A study of Mus musculus with 24 samples.

Results

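Contacts of the viewpoint 154.9 on mouse chromosome 4 were compared between 2 embryonic stem cell lines, OCF2ΔYY1 and OCF2ΔOCT4/SOX2, here called the YY1 line and the OctSox line. All 8 libraries of this viewpoint were used, 4 per line, of 24 libraries in the series. Of the 42400 HindIII fragments of the chromosome, 42397 were compared, after the viewpoint fragment and 1 fragment on either side had been left out. Both lines have the strain background C57Bl/6 x 129/Sv and were at passage 7, and each was sampled at day 0 and at day 3 with 2 biological replicates. The labels of these 8 libraries give the genotypes only by the names above, and do not say whether a line is 1 clone or what was done to the cells between the days. Titles of other libraries of the YY1 and OctSox lines name viewpoints Ocf_Mut_YY1_chr11 and Ocf_Mut_OctSox_chr11, beside Ocf_WT_Oct4. None of these names says that the proteins YY1, OCT4 or SOX2 were lost. The series title concerns pairing of Oct4 alleles early in differentiation. Why this region of chromosome 4 was assayed is not stated in the labels. A line without either change was not analysed here, so each difference is one between the modified lines. Expression was not measured, so the state of the cells could not be set against marker genes.

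In 4C sequencing, chromatin is crosslinked, cut with a restriction enzyme and ligated, so that fragments close in the nucleus are joined, and the partners of one chosen fragment, the viewpoint, are then amplified and counted. Contact with a viewpoint normally falls steeply with distance along the chromosome, and contacts over many megabases are sparse, so that a single distant fragment may stand for few ligation events. YY1 is a zinc finger protein that can bridge promoters and enhancers, and OCT4 and SOX2 bind DNA together at genes of the pluripotent state. Oct4 lies on another chromosome than the viewpoint compared here.

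The viewpoint fragment, placed at the highest pooled count, ran from 154951842 to 154952528 on chromosome 4 (mm9, as are all positions here). It is 687 bases long and lies 677.6 kb from the last deposited fragment end, so within 1 Mb there were 333 fragments, more of them on the side of lower coordinates. No gene was assigned to any fragment, because an annotation of the deposited build was not used here. Total counts ranged from 1318028 to 2279333 per library, and counts outside the viewpoint and its neighbours from 662576 in YY1 day 3 replicate 1 to 1669213 in YY1 day 0 replicate 2. The viewpoint fragment itself took between 10.9% and 63.8% of counts, with the 2 highest shares, 56.3% and 63.8%, in replicate 1 of day 3 of the OctSox and YY1 lines. Some libraries stood apart in ways that recur below. In YY1 day 3 replicate 2 a single fragment over 20 Mb away held 11526 counts, while in the other 7 libraries the highest such fragment held between 306 and 618. OctSox day 0 replicate 1 and OctSox day 3 replicate 2 had 49.9% and 45.6% of their counts within 0.1 Mb of the viewpoint, above the 20.3% to 41.2% of the other 6 libraries. The labels call the replicates biological without naming separate cultures, so p-values measure the spread between these samples.

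Close to the viewpoint the profiles of the lines had the same peaks and valleys. Over the 83 windows of 20 kb within 1 Mb, log shares of libraries correlated between the lines on the same day at 0.928 to 0.976, and between replicates at 0.930 to 0.980. These correlations describe windows that share a library and a steep decay, and carry no test. The 83 windows include the one at 660 to 680 kb, which had no count in any library and may raise them. On a scale relative to all counts within 1 Mb, edgeR's quasi-likelihood test with day as covariate called 3 of 82 tested windows (3.66%) between the lines at an adjusted p under 0.05 (Benjamini-Hochberg). Of these, 2 were higher in the YY1 line (2.44%) and 1 was lower (1.22%). In none of the 82 windows did the shares of the lines separate completely.

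**Figure D1:**
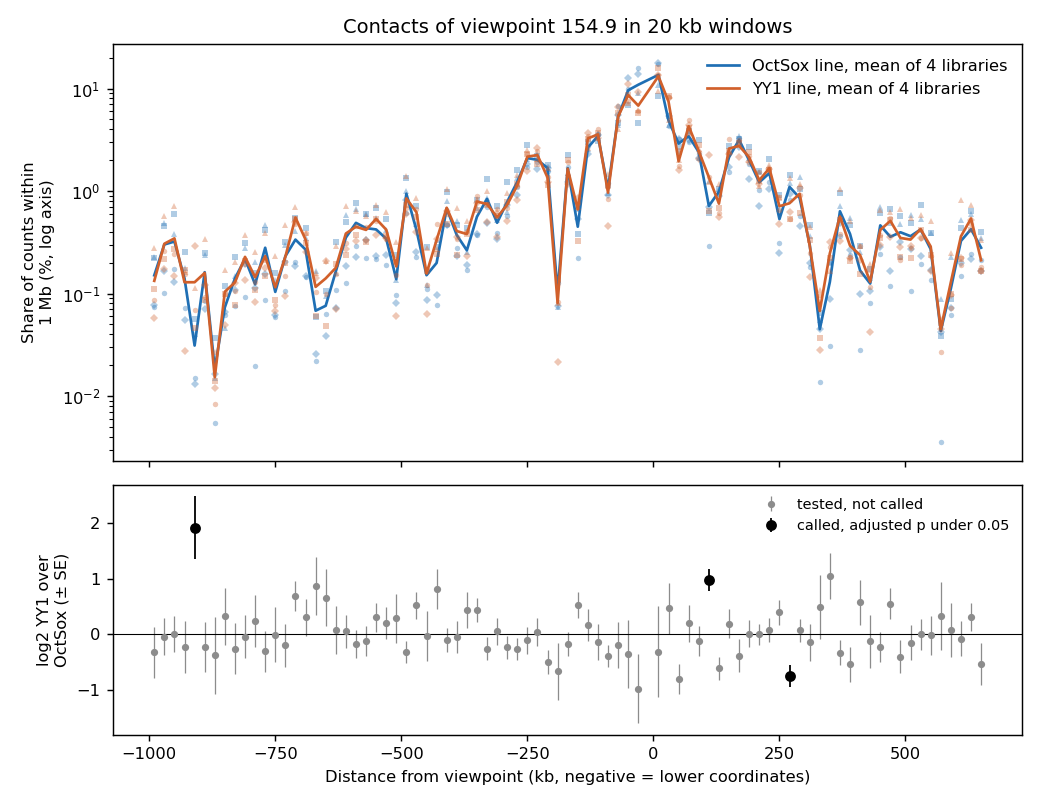
Top, share of the counts within 1 Mb (percent, log axis) in 20 kb windows against distance from the viewpoint, with 1 point per library and a line for the mean of each cell line. Bottom, log2 difference of YY1 over OctSox with its SE for each tested window. Peaks and valleys coincide, and the 3 called windows lie at -920 to -900 kb, 100 to 120 kb and 260 to 280 kb.

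The window at 100 to 120 kb, from 155051550 to 155073049, held 0.291% and 0.617% of the counts within 1 Mb at OctSox day 0 and 1.26% and 0.697% at OctSox day 3. The YY1 libraries held 1.37% and 0.634% at day 0 and 1.22% and 2.24% at day 3. Most YY1 values were thus above most OctSox values, but YY1 day 0 replicate 2 lay below OctSox day 3 replicates 1 and 2. The log2 difference was 0.98 ± 0.20 (SE) with an edgeR adjusted p of 0.000101. Within this window the 586-base fragment from 155060405 had 367, 847, 1807 and 1463 counts in the OctSox libraries (day 0 replicates 1 and 2, then day 3 replicates 1 and 2, the order used throughout). It had 6292, 3518, 849 and 6685 counts in the YY1 libraries. The high YY1 counts were those of every library except day 3 replicate 1.

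On the same side, the window at 260 to 280 kb, from 155207844 to 155235609, was lower in the YY1 line. The OctSox libraries held 0.820%, 1.43%, 1.2% and 0.943% there, and the YY1 libraries 0.539%, 0.538%, 1.33% and 0.631%. All YY1 libraries but day 3 replicate 1 lay below all OctSox libraries. Its log2 difference was -0.75 ± 0.20 (SE), with an edgeR adjusted p of 0.0102. The window consists of 2 long fragments, of 14837 and 12479 bases.

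The window at -920 to -900 kb, from 154029114 to 154049203, was sparse in both lines. Its shares were 0.0149%, 0.0559%, 0.0404% and 0.0131% in the OctSox libraries and 0.0694%, 0.0462%, 0.112% and 0.288% in the YY1 libraries. The log2 difference was 1.91 ± 0.57 (SE), with an edgeR adjusted p of 0.0222. The difference lies in 1 fragment of 12127 bases, from 154029114 to 154041240, which had 92, 255, 208 and 78 counts in the OctSox libraries and 682, 439, 327 and 2266 in the YY1 libraries. As a share of all counts outside the viewpoint, every YY1 library was above every OctSox library at this fragment. With that fragment left out, the log2 difference of the window was 0.60 (edgeR adjusted p 0.617).

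All 3 window calls were lost when YY1 day 0 replicate 1 or YY1 day 3 replicate 2 was left out, when libraries were scaled by total count, with 50 kb windows and with windows shifted by 10 kb. DESeq2 gave the windows at 100 to 120 kb, 260 to 280 kb and -920 to -900 kb adjusted p-values of 0.151, 0.0246 and 0.0246. An interaction term of the edgeR fit called 0 of 82 windows, and 0 had an unadjusted p under 0.05.

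The line difference near the viewpoint followed the length of the HindIII fragments. Of the 302 tested fragments within 1 Mb, 45 were up to 1 kb long and 41 of these had higher fitted values in the YY1 line, with a median log2 difference of 0.88. Of the 62 fragments over 8 kb, 53 had lower fitted values in the YY1 line, with a median log2 difference of -0.41. The median over all 302 was 0.07. Across these fragments length and log2 difference had a Spearman's rho of -0.63, which describes fragments of the same 8 libraries and carries no test. The relation was looked at after the values had been seen.

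**Figure D2:**
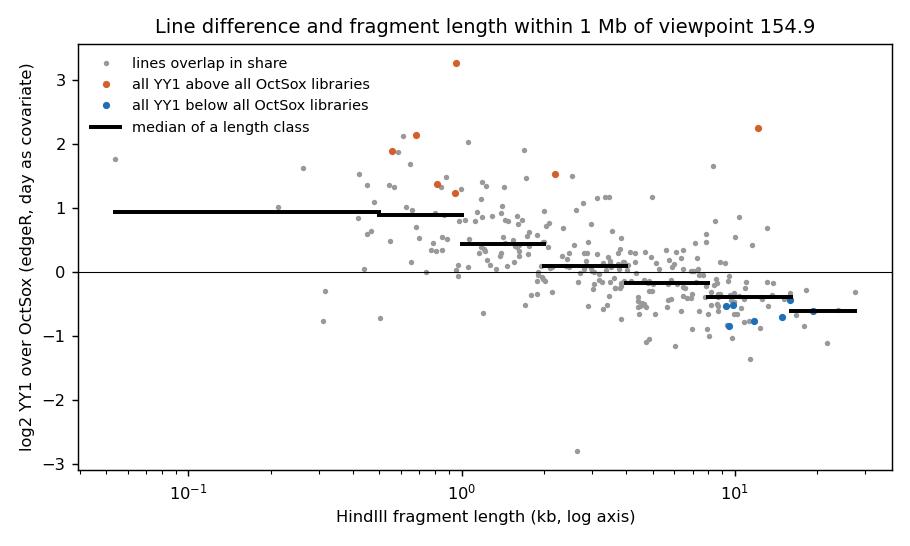
Log2 difference of YY1 over OctSox for each of the 302 tested fragments within 1 Mb against fragment length in kb (log axis), with black bars for the median of each length class. Medians fall from 0.93 in the shortest class to -0.61 in the longest, and the fragments whose libraries separate by line are mostly short where YY1 is above and long where it is below.

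By length class the medians fell in steps. They were 0.93 up to 0.5 kb (12 fragments tested), 0.88 from 0.5 to 1 kb (33), 0.44 from 1 to 2 kb (58), 0.10 from 2 to 4 kb (68), -0.17 from 4 to 8 kb (69), -0.39 from 8 to 16 kb (55) and -0.61 over 16 kb (7). The step was present at each day, with medians for 0.5 to 1 kb of 1.32 at day 0 and 0.39 at day 3, and for 8 to 16 kb of -0.40 and -0.45. Whether the days differed in this was not tested.

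Shares of counts showed the same pattern per library. Fragments over 8 kb held 29.7%, 22.9%, 24.9% and 27.6% of the counts within 1 Mb in the OctSox libraries and 15.4%, 16.1%, 23.1% and 18.0% in the YY1 libraries. All YY1 libraries but day 3 replicate 1 lay below the OctSox range, and that library lay at its lower end. The difference was -8.11 percentage points, with an exact two-sided permutation p of 0.0556 within days, the lowest value possible with 36 arrangements. Adjusted over 12 measures compared in this way it was 0.333. Fragments from 1 to 2 kb held 17.5%, 18.5%, 17.6% and 18.8% in the OctSox libraries and 25.5%, 26.3%, 18.9% and 25.3% in the YY1 libraries. Here every YY1 library was above every OctSox library, again with day 3 replicate 1 next to the OctSox range. The difference was 5.87 points (exact permutation p 0.0556, adjusted p 0.0778 over 7 length classes).

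**Figure D3:**
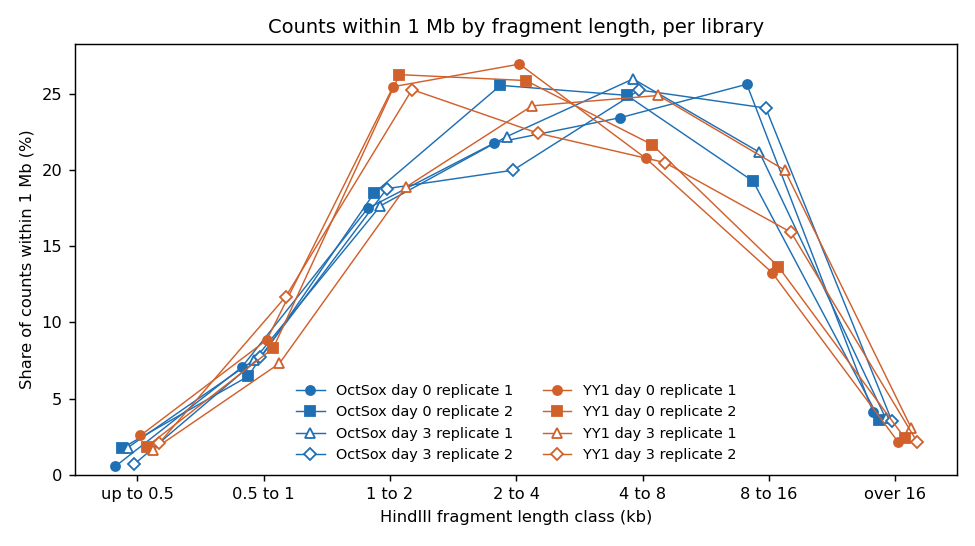
Share of the counts within 1 Mb (percent) in each class of fragment length, with 1 line per library. The YY1 libraries other than day 3 replicate 1 hold 25.3% to 26.3% of their counts in fragments of 1 to 2 kb, against 17.5% to 18.8% in the OctSox libraries, and 13.3% to 15.9% against 19.3% to 25.6% at 8 to 16 kb.

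Farther out the shares differed in the same direction, but the relation over fragments was weaker. Over the 6143 tested fragments beyond 20 Mb, Spearman's rho was -0.16 and the median log2 difference was 0.45. Of 742 over 8 kb, 373 had lower fitted values in the YY1 line (median -0.02), and at day 3 it was 287 (median 0.55). Of 1016 up to 1 kb, 677 had higher fitted values there (median 1.17). These values carry no test. From 1 to 20 Mb the share of fragments over 8 kb was 4.34 points lower in the YY1 line (exact permutation p 0.167), and beyond 20 Mb it was 2.72 points lower (exact permutation p 0.278). Fragments of 0.5 to 1 kb held 3.99%, 6.55%, 5.68% and 6.2% of the counts at 1 to 20 Mb in the OctSox libraries and 9.01%, 10.0%, 6.30% and 9.77% in the YY1 libraries. YY1 day 3 replicate 1 lay inside the OctSox range, and the other 3 YY1 libraries above it. The labels describe the sequenced material as PCR products of different sizes. Sizes per library were not used here, and the part of size selection or amplification in this pattern was not tested.

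The window calls changed when a trend with fragment length was removed. With a length trend per library removed, a setting chosen after seeing the data, edgeR called 1 of 82 windows, the one at -920 to -900 kb, with a log2 difference of 2.50 and an adjusted p of 0.00172. That window turns on a long fragment that was higher in the YY1 line, against the trend. The windows at 100 to 120 kb and 260 to 280 kb then had log2 differences of 0.74 and -0.38, with edgeR adjusted p-values of 0.936 and 0.962. Without this removal the differences were 0.98 and -0.75. The trend is fitted per library to fragments within 1 Mb, so it can take up a line difference itself. Whether length made these differences was not tested.

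Fragments whose shares separated the lines completely numbered 14 within 1 Mb, 7 with all YY1 libraries above all OctSox libraries (2.32% of 302 tested) and 7 below (2.32%). Over all 9241 tested fragments these shares were 2.09% and 0.4%, and over the 6143 of them more than 20 Mb away 2.08% and 0.244%. Of the 7 that were higher in the YY1 line, 5 were from 0.5 to 1 kb long, and all 7 that were lower were over 8 kb long. The clearest short one was 155185008 to 155185687, of 680 bases at 233.2 kb, with 330, 594, 487 and 341 counts in the OctSox libraries and 2742, 2316, 680 and 3451 in the YY1 libraries. As shares these were 0.0339%, 0.0605%, 0.055% and 0.0325% against 0.183%, 0.139%, 0.103% and 0.243%. Its log2 difference was 2.14 ± 0.56 (SE), with an edgeR adjusted p of 0.576. Next to it lies the fragment 155185694 to 155195525, of 9832 bases, which went the other way. The OctSox libraries held 0.497%, 0.647%, 0.431% and 0.480% there and the YY1 libraries 0.387%, 0.385%, 0.343% and 0.257%. Its log2 difference was -0.51 ± 0.34 (SE), with an edgeR adjusted p of 0.867. At this 1 pair of neighbours, chosen after its values were seen, the short one was higher in the YY1 line and the long one lower. Length did not always go with direction: the 12127-base fragment from 154029114, also among the 14, was higher in the YY1 line (log2 difference 2.25).

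A similar pair with a single direction lay at -709 kb. The fragments 154242514 to 154243067 and 154243074 to 154244020, of 554 and 947 bases, were both higher in the YY1 line, with log2 differences of 1.89 ± 0.62 and 1.24 ± 0.69 (SE). The first had 198, 566, 424 and 246 counts in the OctSox libraries and 1698, 1680, 453 and 2307 in the YY1 libraries. Neither passed the edgeR test, with adjusted p-values of 0.576 and 0.724. Among the long fragments, 155020884 to 155030378 at 73.4 kb had the lowest fitted difference of the 7, -0.84 ± 0.36 (SE), with an edgeR adjusted p of 0.576. It held 0.699%, 0.465%, 0.55% and 0.416% in the OctSox libraries and 0.397%, 0.400%, 0.357% and 0.117% in the YY1 libraries.

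The most contacted fragments lay within 50 kb of the viewpoint, and the 5 leading fragments of each line had 4 in common. The exceptions were 154967579 to 154971095, which ranked only in the YY1 line, and 154914833 to 154926167, which ranked only in the OctSox line. The latter, at -31.7 kb and 11335 bases long, held 6.37%, 1.16%, 2.01% and 4.80% in the OctSox libraries and 1.26%, 1.62%, 1.19% and 1.64% in the YY1 libraries. OctSox day 0 replicate 1 and day 3 replicate 2 were far above the rest, and OctSox day 0 replicate 2 was the lowest of all 8. The log2 difference of -1.36 ± 0.41 (SE) did not pass (edgeR adjusted p 0.576), and was -0.50 without OctSox day 0 replicate 1. It was -0.96 without OctSox day 3 replicate 2, and passed without any one of the other 6 libraries, with values from -1.16 to -1.85.

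The adjoining 501-base fragment, 154914326 to 154914826, held 4.05%, 1.12%, 2.37% and 3.64% in the OctSox libraries and 1.54%, 1.55%, 1.11% and 2.35% in the YY1 libraries. Its log2 difference was -0.71 ± 0.37 (SE), with an edgeR adjusted p of 0.676. It was -0.0359 without OctSox day 0 replicate 1. It passed without OctSox day 0 replicate 2, at -1.01, and without YY1 day 3 replicate 2, at -1.36 (edgeR adjusted p 0.00184 and 0.00219). The same OctSox libraries were high at 154901822 to 154906277, with 3.82% and 4.2% against 1.32% to 2.47% in the other 6 libraries, and at 154954693 to 154964047, with 5.18% and 4.45% against 1.03% to 2.17%. The lines overlapped at both. At 154967579 to 154971095 the lines had nearly the same mean share, 1.73% ± 0.59 in the YY1 and 1.72% ± 0.73 in the OctSox line (SD, n = 4 each). At 154966015 to 154967572 the difference turned between the days. The OctSox libraries held 1.79%, 1.73%, 1.46% and 3.07% and the YY1 libraries 2.98%, 4.65%, 1.37% and 1.16%, so that both YY1 libraries were above both OctSox libraries at day 0 and below them at day 3. The edgeR interaction had a log2 value of -2.09 ± 0.51 (SE) and an adjusted p of 0.0893.

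No single fragment passed the line test over both days. EdgeR called 0 of 9241 tested fragments (0%). Before adjustment 775 had a p under 0.05, and DESeq2 called 18, of which 17 were higher in the YY1 line. Leaving out 1 library at a time gave between 1 call, without OctSox day 3 replicate 2, and 18 calls, without OctSox day 0 replicate 2. The smallest p belonged to 154986799 to 154987407, a 609-base fragment 34.9 kb from the viewpoint. It had 1126, 2620, 1588 and 1901 counts in the OctSox libraries and 9026, 5456, 1649 and 22247 in the YY1 libraries. YY1 day 3 replicate 2 was the highest, and YY1 day 3 replicate 1 lay inside the OctSox range of counts and below OctSox day 0 replicate 2 in share. The log2 difference was 2.12 ± 0.50 (SE), with an edgeR adjusted p of 0.576. It was 0.93 without YY1 day 3 replicate 2, with an adjusted p of 1.0, and it passed without any one of the other 7 libraries, with adjusted p-values from 7.23e-09 to 0.0471.

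The other fragments with the smallest p were the one from 155185008, described above, and 3 distant fragments almost unseen in the OctSox line. The fragment 116525192 to 116526980, at -38426 kb, had 0, 2, 0 and 0 counts in the OctSox libraries and 44, 165, 55 and 414 in the YY1 libraries. At 143003841 to 143005374, at -11948 kb, the counts were 1, 0, 0 and 0 against 37, 99, 80 and 372. At 118903103 to 118904052, at -36049 kb, they were 2, 0, 0 and 0 against 345, 124, 91 and 26. All YY1 libraries were above all OctSox libraries at these 3. Their edgeR adjusted p was 0.576 for each, and DESeq2 gave adjusted p-values of 0.00546, 0.00354 and 0.0152. With 0 to 2 counts in each OctSox library, these 3 met the count filter only through the YY1 libraries, so their p-values are no support for a difference. DESeq2 gave adjusted p-values of 0.401 at 154986799 and 0.306 at 155185008.

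Some fragments were seen in 1 line alone. Of all 42397 fragments, 67 had counts in all 4 YY1 libraries and none in any OctSox library (0.158%), and 4 had the reverse (0.00943%). The YY1 libraries were deeper on the whole. With every library thinned to 662576 counts outside the viewpoint the expected numbers were 61.1 and 5.55. Thinning evens out reads and not the number of ligation events behind them, whose part here was not tested. The 67 fragments had a median length of 1428 bases. The 47 of them that were tested had a median of 1725 bases, against 2996 bases over all tested fragments, and 26 of these 47 (55.3%) were up to 2 kb long, against 34.9% of all tested fragments. These 47 met the count filter only through the YY1 libraries. Length also went with detection: fragments with counts in all 8 libraries had a median of 4368.5 bases, and those with none 2407. The lengths of such sparse fragments are therefore no support for a trait of the YY1 line. Their part in the length pattern above was not tested separately. The most counted, 136869763 to 136870826, had 314 counts in the YY1 line, and by counting error alone was at least 77.6-fold higher there, with a floor of 3 counts over the OctSox line. That bound leaves out the spread between replicates.

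At day 0 the count of calls between the lines by edgeR was 0 of 9241 (0%). An unadjusted p under 0.05 was reached by 210, and DESeq2 called 7. At day 3 edgeR called 14 (0.151%), all higher in the YY1 line, and DESeq2 called 56. The methods differed on the 14. DESeq2 adjusted p-values were 0.345 at 48262985 and 86501841, 0.355 at 154986799, 0.332 at 99583914 and 0.500 at 125469808. They were 0.0570 at 149838130 and 0.0588 at 149853179, and from 6.03e-05 to 0.0103 at the rest. All 14 had their highest share of the 8 libraries in YY1 day 3 replicate 2, which held between 45.1% and 99.8% of the pooled YY1 counts. At 6 of them YY1 day 3 replicate 1 did not exceed both OctSox day 3 libraries, and at 5 it had no count. Without YY1 day 3 replicate 2, 0 of the 14 passed and 7 kept a fitted value above 0. That test leaves 1 YY1 library at day 3, which is assumed to vary like the other groups, so a lost call there does not show that 1 library made the difference. At 117694443 the log2 difference was 11.29 with all libraries and 10.52 without that one, at 108801371 12.88 and 8.38, and at 116085256 10.17 and 7.48. At the other 4 above 0 it was 1.31 to 4.47, and at the remaining 7 it was 0.0 or below. The edgeR test then made 4 calls, all lower in the YY1 line. There were 4 calls without OctSox day 3 replicate 1 and 7 without OctSox day 3 replicate 2, again with 1 library in that group. In the set with a median count of at least 40, edgeR made 0 calls at day 3, with 106 at an unadjusted p under 0.05.

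**Figure D4:**
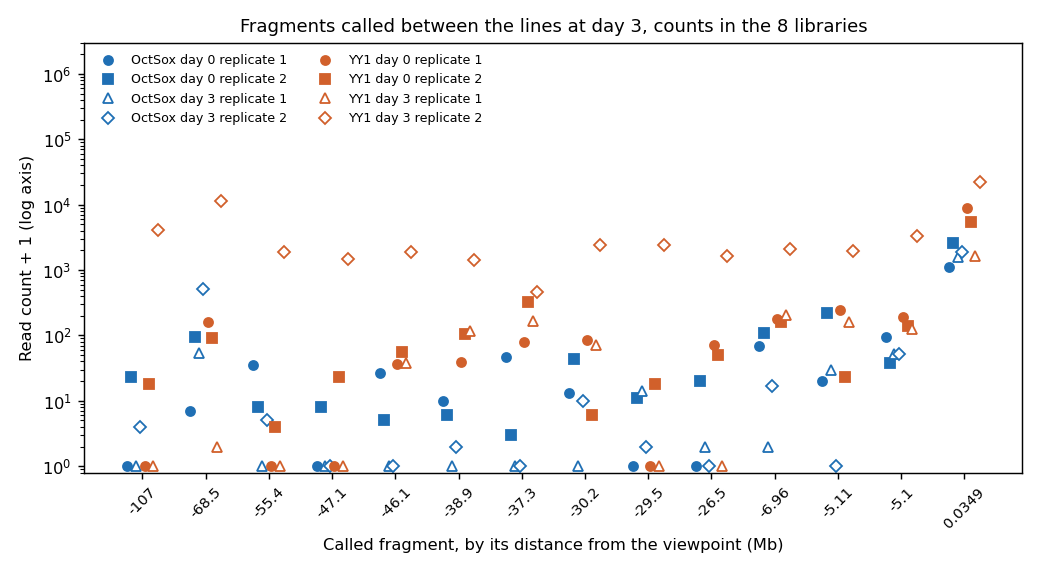
Read count plus 1 (log axis) in each of the 8 libraries for the 14 fragments called between the lines at day 3, ordered by distance from the viewpoint in Mb. The open orange diamonds, YY1 day 3 replicate 2, are the highest values at all 14 fragments, and the other YY1 library of that day, the open orange triangles, does not exceed both OctSox libraries of day 3 in share at 6 of them.

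The smallest p at day 3 was that of 48262985 to 48265819, with 0 and 3 counts in the OctSox and 0 and 4141 in the YY1 libraries of that day. The same fragment had 0 and 22 counts at OctSox day 0 and 0 and 17 at YY1 day 0. The log2 difference at day 3 was 10.20 ± 1.60 (SE), with an edgeR adjusted p of 1.78e-06, and -3.96 without YY1 day 3 replicate 2. The fragment 108801371 to 108804856 had 0 and 0 counts against 37 and 1883, and 107885989 to 107893451 had 0 and 0 against 0 and 1483. The most counted distant fragment, 86501841 to 86502028, is 188 bases long and had 52 and 505 counts against 1 and 11526. At 128453293 to 128453814 the counts were 1 and 0 against 0 and 1666. These 4 had edgeR adjusted p-values from 0.000106 to 0.00205. Over both days the OctSox libraries had 0, 7, 0 and 0 counts at 107885989. At 116085256, another of the called fragments, they had 9, 5, 0 and 1. Both fragments met the count filter only through the YY1 libraries, so their p-values are no support for a difference. In these 5 fragments YY1 day 3 replicate 2 held between 93.3% and 99.6% of the pooled YY1 counts, and the other YY1 library of day 3 had between 0 and 37 counts.

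Of the 14, 1 fragment lay within 1 Mb, the one from 154986799, with a log2 difference at day 3 of 2.73 ± 0.57 (SE), which passed (edgeR, adjusted p 0.00266). The interaction of line and day was called at 3 fragments (0.0325%). They were 48262985 to 48265819 and 108801371 to 108804856, named above, and 99583914 to 99584493, with 34, 7, 0 and 4 counts in the OctSox and 0, 3, 0 and 1917 in the YY1 libraries. YY1 day 3 replicate 2 held 99.6%, 93.6% and 99.8% of the pooled YY1 counts at these 3. Without it, with the spread of the remaining YY1 library of day 3 taken from the other groups, edgeR made 2 calls, both in the opposite direction. Without YY1 day 0 replicate 1 it made 0 calls, with 249 at an unadjusted p under 0.05, and without YY1 day 0 replicate 2 it made 1. DESeq2 called 22 fragments with all libraries. Its adjusted p for the interaction was 0.606 at 48262985, 0.0186 at 108801371 and 0.357 at 99583914.

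The shares of counts by distance overlapped between the lines in each of 5 bands over both days. The share of counts up to 0.1 Mb was 32.7% ± 9.1 in the YY1 line and 37.6% ± 11.9 in the OctSox line, and at 0.1 to 1 Mb it was 30.7% ± 5.5 and 30.8% ± 5.5 (SD, n = 4 each). The share over 20 Mb was 19.2% ± 10.0 and 16.5% ± 2.8 (SD, n = 4 each). The differences in the 5 bands had exact permutation p-values from 0.333 to 1.0, and an adjusted p of 1.0 each. With 36 arrangements the smallest possible p is 0.0556, so no band could have passed. At -4.86 points up to 0.1 Mb, the difference was smaller than the SD within either line, but that SD takes in both days. The difference there was 1.51 points at day 0 and -11.2 points at day 3.

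The difference changed sign between the days in each band. Over 20 Mb alone the lines also separated on each of the 2 days, in opposite directions. At day 0 the OctSox libraries held 13.1% and 15.2% and the YY1 libraries 10.8% and 10.7%, and at day 3 the OctSox libraries held 18.4% and 19.1% and the YY1 libraries 26.1% and 29.5%. The YY1 libraries were thus below both OctSox libraries at day 0, with a difference of -3.47 points, and above both at day 3, with a difference of 9.03 points. This turn was not tested. The 100 most counted far fragments of each library held 21.4% of far counts in YY1 day 3 replicate 2 and between 10.2% and 13.7% in the other 7 libraries. Replicate 1 of that day, at 10.8%, was inside this range while its share over 20 Mb was also high.

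**Figure D5:**
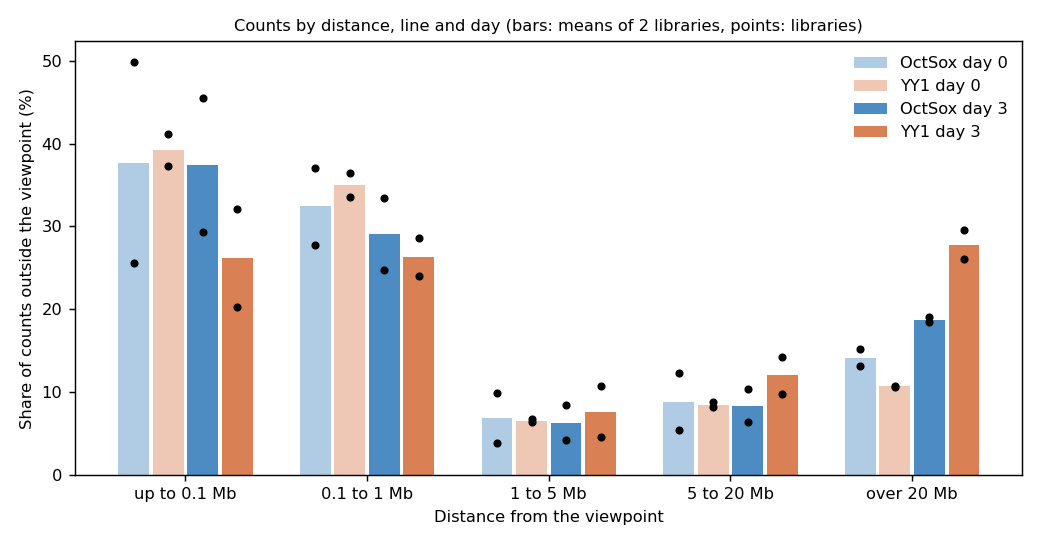
Share of counts outside the viewpoint (percent) in 5 distance bands, with bars for the mean of 2 libraries per line and day and points for the libraries. Over 20 Mb the YY1 libraries lie below the OctSox libraries at day 0 (10.7% and 10.8% against 13.1% and 15.2%) and above them at day 3 (26.1% and 29.5% against 18.4% and 19.1%).

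The line values for the sides of the viewpoint overlapped. Within 0.5 Mb the side of lower coordinates held 54.5%, 48.8%, 50.7% and 53.4% of counts in the OctSox libraries and 46.6%, 45.8%, 49.9% and 50.6% in the YY1 libraries. The line means were 51.8% ± 2.6 and 48.2% ± 2.4 (SD, n = 4 each). Both YY1 libraries of day 3 lay above OctSox day 0 replicate 2. The difference of -3.60 points did not pass, with an exact permutation p of 0.0556, the smallest possible, and an adjusted p of 0.333 over 12 measures. It was -2.17 points without OctSox day 0 replicate 1. The decay slope of log10 contact on log10 distance from 20 kb to 20 Mb was -1.04 ± 0.11 in the YY1 and -1.11 ± 0.14 in the OctSox line (SD, n = 4 each), with an exact permutation p of 0.611. At equal depth, the libraries detected 6055 ± 788 fragments over 20 Mb in the YY1 and 5286 ± 652 in the OctSox line (SD, n = 4 each), with an exact permutation p of 0.222. The difference of 769 fragments turned into 344 or 1200 when replicate 1 or replicate 2 of YY1 day 0 was left out, and into 491 when OctSox day 0 replicate 2 was.

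In windows of 500 kb along the chromosome, edgeR called 0 of 303 between the lines (0%), with 19 at an unadjusted p under 0.05, and DESeq2 called 2. Those 2 were the windows at -103.5 to -103 Mb and -88 to -87.5 Mb, and both were lower in the YY1 line. The first, from 51449101 to 51950327, had 324, 118, 107 and 387 counts in the OctSox libraries and 8, 3, 35 and 143 in the YY1 libraries. As shares, all YY1 libraries were below all OctSox libraries there. The log2 difference was -3.72 ± 1.09 (SE), with an edgeR adjusted p of 0.382 and a DESeq2 adjusted p of 0.00402. The second, from 66952278 to 67450904, had 111, 73, 203 and 576 counts against 10, 17, 39 and 123, with a log2 difference of -2.92 ± 0.86 (SE). Its adjusted p was 0.382 by edgeR and 0.00402 by DESeq2. A window at -43 to -42.5 Mb was the other one whose shares separated the lines, with the YY1 line below (2 of 303 windows, 0.66%). It had 320, 216, 237 and 235 counts against 44, 46, 122 and 118, and its log2 difference was -2.07 ± 0.80 (SE), which did not pass (edgeR, adjusted p 0.592). The window with the third smallest p, at -132.5 to -132 Mb, had a log2 difference of -2.04 ± 0.71 (SE) and likewise did not pass (edgeR, adjusted p 0.592).

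In the 500 kb windows the direction of the fitted differences changed along the chromosome. The YY1 line was higher in 25 of 30 windows from 5 to 20 Mb, in 33 of 40 from 20 to 40 Mb, in 37 of 80 from 40 to 80 Mb, in 21 of 77 from 80 to 120 Mb and in 6 of 64 beyond 120 Mb. Over all 303 windows it was higher in 130, with a median log2 difference of -0.13. Single tested fragments gave another balance. The YY1 line was higher in 63.8% of them from 20 to 40 Mb, 56.1% from 40 to 80 Mb, 52.5% from 80 to 120 Mb and 43.2% beyond. Over all 9241 it was higher in 59.2%, with a median of 0.40. From 40 to 120 Mb most windows were lower in the YY1 line and most tested fragments higher. The 2 balances come from separate fits, each with its own TMM factors and so its own zero. Windows sum all counts, while only 16.3% of the fragments over 20 Mb away passed the count filter, some through the YY1 libraries alone. The balances can therefore not be set against each other as a property of the contacts. Of the counts over 20 Mb away, the share lying over 80 Mb away was 38.1%, 17.9%, 23.8% and 38.4% in the OctSox libraries and 16.0%, 17.2%, 23.3% and 28.4% in the YY1 libraries. OctSox day 0 replicate 1 and day 3 replicate 2 were above all others, and the other OctSox libraries lay inside the YY1 range. The difference of -8.33 points, a measure added after seeing the data, had an exact permutation p of 0.222, and was -3.27 and -4.66 points without each of those 2 libraries. They are the libraries that also held the most counts within 0.1 Mb.

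Single distant fragments hardly repeated between libraries. Over the 6143 tested fragments more than 20 Mb away, log shares of replicates correlated at 0.0165 to 0.259, and those of libraries of different lines on the same day at 0.0051 to 0.234. Summed over 265 windows of 500 kb, the correlations were 0.721 to 0.831 between replicates and 0.722 to 0.845 between the lines on the same day. These are descriptions across sites that share a library and its depth. The ranges between replicates and between the lines overlapped on either scale. Of the 37580 fragments over 20 Mb away, 47.3% had no count in any library, and 43.3% of those detected were seen in 1 library only. Within 0.1 Mb all 44 fragments had counts in all 8 libraries. A count of 0 in a single library over 20 Mb away therefore says little at this depth, and differences between the lines could be read far more firmly close to the viewpoint.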

How the data were processed

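The 8 libraries were made by 4C from cells digested with HindIII, per the labels' protocols. The deposited tables hold counts per HindIII fragment, and the authors' alignment used Bowtie and mm9, per the submitters' processing notes. The counting rule, filters and any removal of PCR duplicates are unknown here. Reads were thus treated as independent in the ratio given for the fragment from 136869763, which may not hold. Count rows were joined by order to the deposited fragment list.

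Counts were tested with edgeR 4.0.16 (quasi-likelihood, TMM, filterByExpr with a minimum count of 10) in R 4.3.3, with line and day as terms and Benjamini-Hochberg adjustment. DESeq2 1.42.0, scaling by total count, other filters and windows, removed distance or length trends, a replicate block and each library left out were alternatives. Shares were compared by exact permutation within days. Scripts were tested on simulated data. Named were the 5 fragments with the highest mean share in each line, the 5 with the smallest p where fewer than 5 were called, up to 5 called by the interaction and at each day, and up to 8 called windows of each size (the 3 with the smallest p where fewer than 3 were called). Fragments within 20 kb of one with a smaller p in the same list were passed over. The fragments that separate the lines within 1 Mb, those inside called windows, the one from 136869763 and the window at -43 to -42.5 Mb were chosen after their values were seen, as were the length and far-share measures and the alternatives with the length trend removed, shifted windows, whole-library sizes, or the most counted fragment of a window left out. Replicate numbers did not pair libraries: correlations of deviations ran from -0.0432 to 0.109 over fragments and from -0.689 to 0.283 over 20 kb windows. Members and lists were chosen with earlier results of these data known.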

Additional observations from a re-analysis of the deposited data

Results flagged for a closer look

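At several named fragments the gap between 1 library of a line and the next took up nearly the whole range of the 4. Chance gives such a gap in about 1 in 20 groups of well measured values. That rate does not hold for sparse counts, nor for fragments named because of a high library, as most of these were. In the YY1 line it was day 3 replicate 2, with shares of 0.292% at the fragment from 48262985, 0.133% at 108801371, 0.104% at 107885989, 0.812% at 86501841, 0.117% at 128453293 and 0.135% at 99583914. In the OctSox line day 0 replicate 2 stood out at 116525192 (0.000204%), 48262985 (0.00224%), 107885989 (0.000714%) and 128453293 (0.00194%). OctSox day 0 replicate 1 stood out at 143003841 (0.000103%), 118903103 (0.000205%) and 108801371 (0.00267%). At 116525192, 143003841 and 118903103 these were 1 or 2 counts against 0. At 260 to 280 kb, YY1 day 3 replicate 1 held 1.33% of the counts within 1 Mb, and the other YY1 libraries 0.538% to 0.631%.

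EdgeR's interaction term of line and day passed at 48262985 (log2 10.88), 99583914 (13.16) and 108801371 (12.10). There YY1 day 3 replicate 2 held 99.6%, 99.8% and 93.6% of the pooled YY1 counts. DESeq2 gave the interaction adjusted p-values of 0.606, 0.357 and 0.0186. The share of counts over 20 Mb away differed by -3.47 points at day 0 and 9.03 points at day 3, and the share at 154966015 by 2.06 and -1.0 points. The first reversal was not tested. For the second, the interaction term had an edgeR adjusted p of 0.0893.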

How the results depend on the processing

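The line calls over both days numbered 18 by DESeq2, 2 without a filter, 4 with the replicate block, and 1 to 18 without 1 library. At day 0 they numbered 7 by DESeq2, 1 each with total-count scaling, no filter and the distance trend removed, and 0 to 1 without 1 library. At day 3 they numbered 56 by DESeq2, 5 with total-count scaling, 5 with the replicate block, 0 with a median count of at least 40, and 4 to 20 without 1 library. Interaction calls numbered 22 by DESeq2, 0 with a median of at least 40, and 0 to 10 without 1 library. DESeq2 called 2 windows of 500 kb. The 20 kb calls numbered 0 with total-count scaling, 50 kb windows, whole-library sizes and shifted windows, 1 with the length trend removed, and 0 to 6 without 1 library. The replicate numbers do not pair the libraries, and the block is given for that reason here only.

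Without 1 library, differences ran from -10.9 to 1.22 points up to 0.1 Mb, -2.4 to 2.22 at 0.1 to 1 Mb, -1.06 to 2.07 at 1 to 5 Mb and -0.0792 to 3.4 at 5 to 20 Mb, in slope from -0.00814 to 0.14, and for the 100 top fragments from -1.14 to 4.14. With detected fragments only, 1 to 5 Mb gave -0.383. The log2 difference at 154966015 was -0.00373 by DESeq2, -0.435 with length removed and -0.236 to 0.764 without 1 library. At 154967579 it was -0.0933 by DESeq2, -0.00939 with total-count scaling, -0.0246 without a filter, -0.0858 with length removed, -0.043 with a median of at least 40, and -0.543 to 0.586 without 1 library. Day 3 differences without 1 library ran from -3.96 to 14.0 at 48262985, 8.38 to 13.9 at 108801371, 0.0 to 13.5 at 107885989, -8.07 to 6.9 at 86501841 and -2.37 to 12.6 at 128453293. The cause was not tested. Of these distant fragments, only the one from 86501841 had counts in every library.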
